A study of Mus musculus with 16 samples.

Results

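The genes described here encode the protein subunits of the mitochondrial ribosome. They were taken from the count table by a rule on names: every row annotated as protein-coding whose symbol begins with Mrpl or Mrps followed by a digit. The rule found 78 of the 46320 genes in the table, and they are described beside the 2 rows for the mitochondrially encoded ribosomal RNAs, mt-Rnr1 (12S rRNA) and mt-Rnr2 (16S rRNA). RNA had been collected from the somatodendritic and the axonal compartment of mouse motoneurons grown in microfluidic chambers, in which axons extend through channels into a compartment of their own. Motoneurons came from the lumbar spinal cord of embryos at embryonic day 13 and were enriched by panning with a p75NTR antibody. Both genotypes were on a C57Bl/6 background. Wild-type cells (labelled WT, written +/+ below) were compared with cells lacking both copies of Hnrnpr (labelled KO, written Hnrnpr-/- below), a mouse line in which CRISPR/Cas9 had removed the 5′ exons of the gene for the RNA-binding protein hnRNP R in every cell. All 4 groups received CNTF in both compartments and BDNF in the axonal compartment alone. Each group had 4 libraries, numbered 1 to 4 in the labels, and 16 libraries were analysed.

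Mitochondria carry their own ribosome, which translates the few respiratory chain subunits encoded by mitochondrial DNA. Its rRNAs are transcribed inside the organelle, whereas all of its proteins are encoded in the nucleus, made on cytosolic ribosomes and imported. Some of these proteins descend from bacterial ribosomal proteins and others were acquired during the evolution of mitochondria. In neurons, mRNAs for mitochondrial proteins are among those found in axons, where they can be translated far from the cell body.

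Sequencing depth was high enough to measure all 78 members in each library. Total counts lay between 22024923 and 34864151 per library, and the lowest count of any member in any library was 89. All 78 passed the filter on low counts. Hnrnpr itself had 3922 to 15608 counts in the +/+ axonal libraries and 4574 to 5913 in the +/+ somatodendritic libraries, against 18 to 38 and 13 to 27 in the Hnrnpr-/- libraries. One library stood apart in the rRNA rows, axonal +/+ replicate 2, and the rRNA results are also given without it where it moved them. The motoneuron marker Mnx1 was at 0 counts in 15 of the 16 libraries. Chat, the enzyme that makes acetylcholine, had 14 to 31 counts per somatodendritic library and at most 8 per axonal library. Of the other motoneuron markers examined, Nefl had 18255 to 38693, Nefm 3869 to 10561 and Isl1 83 to 194 counts per somatodendritic library. Slc18a3, Slc5a7, Ngfr and Prph had 83 to 303, 65 to 224, 75 to 195 and 26 to 60 there.

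Some promoters of the members held short sequence motifs, which are shown for 6 genes. RefSeq promoter windows (build GRCm38.p6), reaching from 250 bases before to 50 bases after the gene start, were found for 69 of the 78 members. The ETS-type motif CCGGAAG, searched on both strands, was present in 26 of these 69 windows (37.7%) and in 9.93% of all 27025 windows. The NRF1-type motif CGCATGCG, which reads the same on both strands, was in 7 member windows (10.1%) against 2.07% of all windows. AAGATGGCG, a YY1-type motif, was in 8 (11.6%) against 1.64%. The GC box GGGCGG was in 49.3% of member windows and 38.2% of all, and the TATA box letters TATAAA were in 7.25% and 15.7%. Capitals mark the motif in the stretches below, each written 5′ to 3′ on the strand of its gene. Mrps18c, Mrps27 and Mrpl48 are shown for the ETS-type motif. Whether these motifs go with the axonal difference was not tested. Mrpl10 and Mrps18b are shown for the NRF1-type motif and Mrps11 (log2 fold change 1.30, adjusted p = 0.000189, in axonal against somatodendritic +/+ libraries) for the YY1-type motif.
Mrps18c, chr5:100798579-100798633, plus strand: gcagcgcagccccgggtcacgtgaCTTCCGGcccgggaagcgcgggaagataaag
Mrps27, chr13:99344714-99344768, plus strand: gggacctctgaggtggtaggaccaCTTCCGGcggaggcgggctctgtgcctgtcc
Mrpl48, chr7:100583134-100583188, minus strand: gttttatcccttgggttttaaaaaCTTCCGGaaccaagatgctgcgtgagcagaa
Mrpl10, chr11:97041423-97041478, plus strand: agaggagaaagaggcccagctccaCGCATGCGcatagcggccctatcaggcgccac
Mrps18b, chr17:35916633-35916688, minus strand: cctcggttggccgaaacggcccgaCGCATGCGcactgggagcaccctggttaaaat
Mrps11, chr7:78782999-78783055, plus strand: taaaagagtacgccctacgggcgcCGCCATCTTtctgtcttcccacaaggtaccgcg

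Transcripts of the mitochondrial ribosomal proteins made up a larger part of the axonal than of the somatodendritic libraries in both genotypes. Summed over the 78 members, levels in CPM (counts scaled to library size with TMM factors) were 2292, 2174, 2308 and 2550 in the +/+ somatodendritic libraries 1 to 4. In the +/+ axonal libraries they were 3889, 4141, 4981 and 3350. The Hnrnpr-/- sums were 1946, 2525, 2259 and 2182 in the somatodendritic and 3844, 3805, 4884 and 4155 in the axonal libraries. Every axonal sum lay above every somatodendritic sum. The mean log2 difference of the sums was 0.80 in +/+ and 0.90 in Hnrnpr-/- motoneurons (each two-sided exact permutation p = 0.0286, the smallest that 4 against 4 libraries allow, and 0.0457 after Benjamini-Hochberg adjustment over 8 such tests). With libraries of the same number as pairs, the exact permutation p was 0.125 in each genotype, the smallest that 4 pairs allow. CPM values are shares of a library, so a smaller amount of RNA per axon than per cell body does not enter them, and fewer cells of a type and less RNA per cell cannot be told apart.

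**Figure D1:**
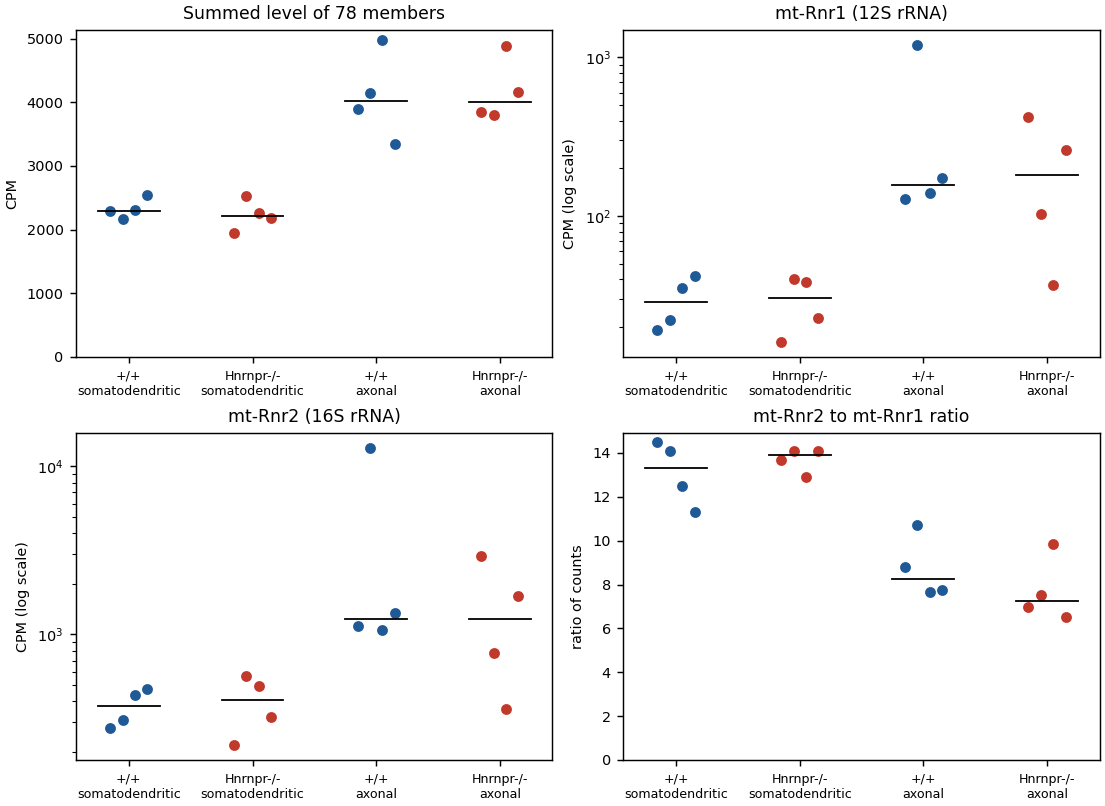
Summed CPM of the 78 members, CPM of mt-Rnr1 and mt-Rnr2 (log axes) and the mt-Rnr2 to mt-Rnr1 ratio of counts, with 1 point per library in the order of replicates 1 to 4 and a line at the median of each group. The axonal sums of the members all lie above the somatodendritic sums, axonal +/+ replicate 2 lies far above the other libraries in both rRNA panels, and the ratio of the rRNAs is lower in all axonal libraries.

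Gene by gene, 66 of the 78 members were higher in axonal than in somatodendritic +/+ libraries and 0 were lower (edgeR quasi-likelihood test, adjusted p under 0.05). Of all 19964 genes tested, 30.1% were higher and 27.4% were lower. The median log2 fold change of the members was 0.81 and that of all genes 0.07. Of the 66, 28 were at least 2-fold higher, against 22.3% of all genes tested. No member was lower at an unadjusted p under 0.05 either, nor by DESeq2 or limma after adjustment. For 64 members all 4 axonal libraries lay above all 4 somatodendritic libraries, which was so for 24.8% of all genes.

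In Hnrnpr-/- motoneurons 68 members were higher and 0 were lower in the axonal libraries, against 27.5% and 26.8% of all genes, and 37 of the 68 were at least 2-fold higher, against 20% of all genes. At an unadjusted p under 0.05, 1 member, Mrpl50, was lower. The median log2 fold change was 0.95, and complete separation of the libraries was seen for 68 members and 24.1% of all genes. The test called 64 members in both genotypes, 8 in neither, 2 in +/+ alone (Mrpl32 and Mrps22) and 4 in Hnrnpr-/- alone (Mrpl19, Mrpl35, Mrpl41 and Mrps5). Of all genes tested 25% were called higher in both genotypes, 67.5% in neither, 5.06% in +/+ alone and 2.43% in Hnrnpr-/- alone. Of the 4 members called in Hnrnpr-/- cells alone, Mrpl19 (0.38 to 0.52), Mrpl35 (0.39 to 0.46) and Mrps5 (0.32 to 0.36) lost the call in Hnrnpr-/- cells in 6, 5 and 5 of the 16 fits that left out 1 library. Calls were gained there by Mrps22 in 4 of these fits (0.47 to 0.60) and, among the 8 called in neither genotype, by Mrpl11 in 6 (0.37), Mrps2 in 5 (0.39 to 0.47), Mrps31 in 3 (0.44 to 0.54) and Mrpl50, as lower, in 2 (-0.45 to -0.39). Mrpl32, the bacterial L32 homolog, had log2 fold changes of 0.80 (SE 0.25) in +/+ and 0.43 (SE 0.25) in Hnrnpr-/- cells, and the difference between them did not pass the test (adjusted p = 1).

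**Figure D2:**
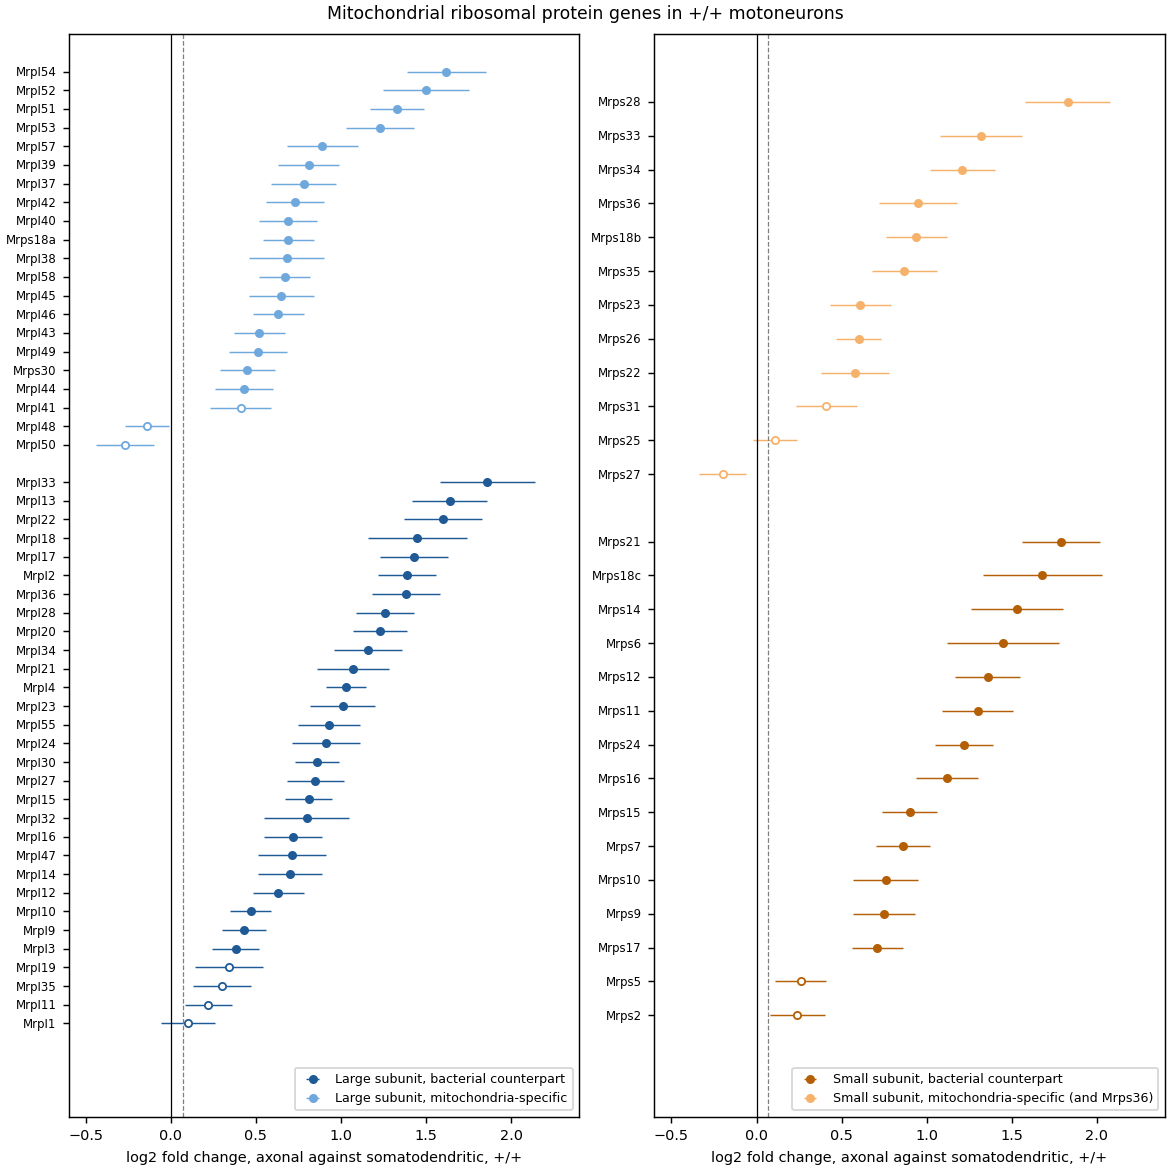
Log2 fold change with its standard error for each member, axonal against somatodendritic in 4 against 4 +/+ libraries, grouped by subunit and by whether the protein has a bacterial counterpart; filled points passed an adjusted p of 0.05, open points did not, and the dashed line is the median of all genes (0.07). Fold changes run from -0.27 for Mrpl50 to 1.86 for Mrpl33, and both subunits and both origins spread over most of that range. Mrps18a and Mrps18b are placed with the proteins specific to mitochondria.

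Both subunits and both evolutionary classes took part in the axonal difference. In +/+ motoneurons 44 of 51 large subunit genes were higher (median log2 fold change 0.78) and 21 of 26 small subunit genes (median 0.88). Among proteins with a bacterial counterpart 39 of 45 were higher (median 0.91), and among those specific to mitochondria 26 of 32 (median 0.67). Mrps18a and Mrps18b were counted with the latter, although both are homologs of the bacterial protein S18. Small subunit genes with a bacterial counterpart had a median of 1.12 (13 of 15 higher), the large subunit genes with one 0.88 (26 of 30), the large subunit genes specific to mitochondria 0.68 (18 of 21) and the small subunit genes specific to mitochondria 0.61 (8 of 11). The ratio of the summed CPM of large to small subunit genes was 2.32 to 2.38 in somatodendritic and 2.14 to 2.33 in axonal +/+ libraries, a log2 difference of -0.05 (exact permutation p = 0.0857, adjusted p = 0.114 over the 8 tests). The groups overlapped, also in Hnrnpr-/- motoneurons (2.27 to 2.33 against 2.12 to 2.34, exact permutation p = 0.686). Within pairs of the same number the exact permutation p was 0.125 in +/+ and 0.75 in Hnrnpr-/- cells.

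Mrpl33 (chromosome 5, 31771295 to 31779988, plus strand, GRCm39), a small protein of the large subunit that is conserved from bacteria, had the largest axonal difference of the members. Its levels were 13.7, 8.77, 8.61 and 18.0 CPM in the +/+ somatodendritic and 29.8, 53.4, 57.2 and 37.9 CPM in the +/+ axonal libraries. Hnrnpr-/- levels were 7.9, 10.5, 12.1 and 9.77 CPM in the somatodendritic and 35, 32.7, 51.0 and 49.1 CPM in the axonal libraries. The compartments did not overlap in either genotype. The log2 fold change was 1.86 (SE 0.28, adjusted p = 0.000118) in +/+ and 2.06 (SE 0.28, adjusted p = 8.46e-05) in Hnrnpr-/- cells.

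Mrps28 (chromosome 3, 8867206 to 8988917, minus strand) was counted here with the mitochondria-specific small subunit proteins, although some nomenclature pairs it with a bacterial protein. In +/+ cells it rose from 8.86, 6.21, 6.79 and 6.24 CPM in somatodendritic to 21.8, 22, 38.8 and 17.2 CPM in axonal libraries (log2 fold change 1.83, SE 0.25, adjusted p = 7.31e-05). Mrps21 (chromosome 3, 95769946 to 95778826, minus strand), a small subunit protein with a bacterial counterpart, had 10.7, 6.3, 6.54 and 10.2 CPM in somatodendritic and 26, 30.5, 36.1 and 24.3 CPM in axonal +/+ libraries. Its log2 fold change was 1.79 (SE 0.23, adjusted p = 4.56e-05). For both genes the lowest axonal value was above the highest somatodendritic value, as it was for Mrpl13, a large subunit protein with a bacterial counterpart (19.6 to 26.2 against 57.8 to 93.4 CPM, log2 fold change 1.64). Mrpl54, specific to mitochondria, ranged over 7.94 to 13.1 CPM in somatodendritic and 26.3 to 45.5 CPM in axonal +/+ libraries (log2 fold change 1.62), but 94.4% of its exon bases lie under exons of Matk on the opposite strand.

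The 3 homologs of the bacterial protein S18 sit at different places in the ribosome. Mrps18c (chromosome 5, 100946625 to 100952333, plus strand), which occupies the bacterial position in the small subunit, had 16.1, 12.2, 11.6 and 21.9 CPM in somatodendritic and 27.7, 93.4, 47.8 and 28.4 CPM in axonal +/+ libraries. The axonal values were all higher and replicate 2 was the highest of them (log2 fold change 1.68, SE 0.35, adjusted p = 0.00118). Mrps18b, a second small subunit homolog, was at 22.8 to 31.1 CPM in somatodendritic and 38.2 to 62.5 CPM in axonal +/+ libraries (log2 fold change 0.94, adjusted p = 0.000622). Mrps18a, which belongs to the large subunit despite its symbol, was at 32.8 to 40.2 and 49.0 to 65.3 CPM (log2 fold change 0.69, adjusted p = 0.00134). Exons of Mrps18c overlap those of Abraxas1 and Helq on the other strand over 78.2% of their bases.

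Several members with a described role of their own were among those that rose in +/+ axonal libraries. Mrpl12, part of the stalk that recruits translation factors, was at 55.4 to 64.4 CPM in somatodendritic and 72.4 to 115 CPM in axonal libraries (log2 fold change 0.63, SE 0.15, adjusted p = 0.00254). Mrpl45, which lies at the exit tunnel and ties the ribosome to the inner membrane, had 39.0 to 49.6 and 53.4 to 93.6 CPM (log2 fold change 0.65, adjusted p = 0.0104). Mrpl58, a peptidyl-tRNA hydrolase built into the large subunit, had 30.3 to 33.8 and 40.4 to 63.3 CPM (log2 fold change 0.67, adjusted p = 0.00184). Mrps12, a protein of the decoding centre, rose from 16.2 to 18.9 CPM up to 37.2 to 60.9 CPM (log2 fold change 1.36, adjusted p = 7.72e-05). Mrps30, a large subunit protein despite its symbol, had 35.2 to 38.9 and 41.0 to 62.9 CPM (log2 fold change 0.45, adjusted p = 0.024). Mrps36, whose product has since been placed in the oxoglutarate dehydrogenase complex and not in the ribosome, had 8.14 to 11.4 and 14.8 to 23.1 CPM (log2 fold change 0.95, adjusted p = 0.00266).

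The smallest differences that passed the test were those of large subunit genes. Mrpl3, with a bacterial counterpart, had 47.9, 50.9, 51.8 and 56.8 CPM in somatodendritic and 68.4, 65.1, 78.6 and 57.2 CPM in axonal +/+ libraries. The lowest axonal value exceeded the highest somatodendritic value by less than 1 CPM, and the log2 fold change was 0.38 (SE 0.14, adjusted p = 0.0303). Mrpl44, Mrpl9, Mrps30, Mrpl10 and Mrpl49 followed with log2 fold changes of 0.43, 0.43, 0.45, 0.47 and 0.51. In Hnrnpr-/- cells the values for Mrpl3 and these 5 genes were 0.38, 0.59, 0.44, 0.62, 0.61 and 0.65 in the same order, and all passed the test. In +/+ cells Mrpl3 was not called without somatodendritic replicate 1 (0.38), axonal replicate 1 (0.36) or axonal replicate 3 (0.34), Mrps30 without axonal replicate 1 (0.41) or 3 (0.36), and Mrpl44 in 8 of the 16 fits that left out 1 library (0.31 to 0.46). In Hnrnpr-/- cells Mrpl3 was not called without somatodendritic replicate 3 (0.35) or 4 (0.36) or axonal replicate 3 (0.32).

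The 12 members that did not pass the test in +/+ cells are named after their values were seen. In order of their log2 fold change they were Mrpl50 (-0.27), Mrps27 (-0.20), Mrpl48 (-0.14), Mrpl1 (0.10), Mrps25 (0.11), Mrpl11 (0.22), Mrps2 (0.24), Mrps5 (0.26), Mrpl35 (0.30), Mrpl19 (0.34), Mrps31 (0.41) and Mrpl41 (0.41). Mrpl50 (chromosome 4, 49512597 to 49521083, minus strand), a large subunit protein specific to mitochondria, had 43.7, 48.8, 58.2 and 62.9 CPM in somatodendritic and 44.2, 56.5, 39.3 and 37.4 CPM in axonal +/+ libraries. The ranges overlapped (SE 0.17, adjusted p = 0.18), but without axonal +/+ replicate 2 Mrpl50 was called lower (-0.41). Hnrnpr-/- cells had 48.8 to 68.1 CPM of Mrpl50 in somatodendritic and 40.0 to 50.3 CPM in axonal libraries (log2 fold change -0.38, SE 0.17, adjusted p = 0.0617), and there Mrpl50 was called lower without axonal +/+ replicate 2 (-0.39) or axonal Hnrnpr-/- replicate 1 (-0.45). Mrps27 (chromosome 13, 99481275 to 99552070, plus strand), a small subunit protein of the pentatricopeptide repeat family, had 41.5, 47.7, 50.1 and 47.4 against 45.7, 32.3, 46.0 and 38.0 CPM in +/+ cells (SE 0.14, adjusted p = 0.231). Mrpl48 had 70.6 to 95.2 CPM in somatodendritic and 77.7 to 81.1 CPM in axonal +/+ libraries, so its axonal values lay inside the somatodendritic range. Mrpl35 (0.43) and Mrpl19 (0.47) were called higher without axonal +/+ replicate 2, Mrps5 (0.39) without axonal +/+ replicate 4, Mrpl11 (0.36) without somatodendritic +/+ replicate 4, and Mrps31 and Mrpl41 in 3 and 6 of the 16 fits that left out 1 library.

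Axonal differences were smaller for members with longer annotated exons, and the same held for protein-coding genes at large. Summed exon length (the union of all annotated exons) ran from 412 bases for Mrpl52 to 8707 bases for Mrpl3, with a median of 1580 bases against 3848 bases for the 15378 protein-coding genes tested. As a description across genes, which share their libraries and are not replicates, Spearman's rho between this length and the +/+ log2 fold change was -0.50 over the 78 members and -0.38 over the protein-coding genes. Up to 750 bases, 10 of 10 members and 79.6% of the other 343 protein-coding genes were higher in axonal +/+ libraries. From 1500 to 2000 bases it was 13 of 14 members and 48.6% of 1230 other genes, with medians of 0.70 and 0.60. Above 5000 bases 6 of 9 members were higher (median 0.70), among 15.7% of 5509 other genes (median -0.56). In the bins below 1500 bases the +/+ medians were 1.56 for members against 1.58 for other genes, 0.90 against 1.23 and 0.86 against 0.87. From 1000 to 1500 bases this order depended on genotype and length measure, with 0.98 against 0.94 in Hnrnpr-/- cells and 0.95 against 0.81 in +/+ cells by the length of the canonical transcript. By that measure 2 of 5 members above 5000 bases were higher in +/+ cells (median 0.34), among 17% of 4018 other genes (median -0.59). Axonal libraries were made with more reagent and more PCR cycles than somatodendritic ones, so compartment and library preparation cannot be told apart.

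**Figure D3:**
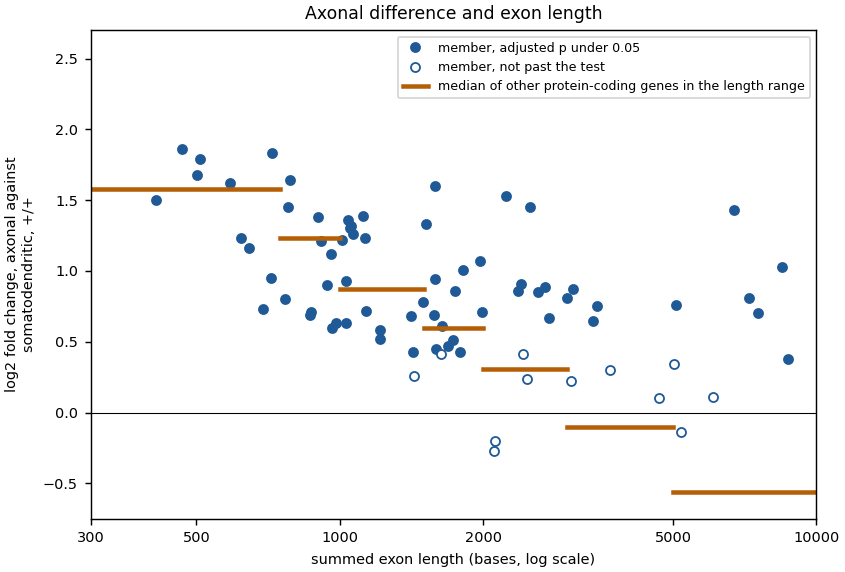
Log2 fold change, axonal against somatodendritic in +/+ motoneurons, against summed exon length (bases, log axis) for the 78 members, with bars for the median of all other protein-coding genes in 7 length ranges. The bars fall from 1.58 to -0.56 as length grows, while the median of the members falls from 1.56 in the shortest range to 0.70 in the longest.

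Summed markers of astrocytes and radial glia were higher in the axonal libraries of both genotypes. The sums for fibroblasts and meninges, for oligodendroglia and Schwann cells and for microglia overlapped between compartments. The part of such RNA in the difference of the members was not tested. Of all genes tested, 30.1% were higher and 27.4% lower in axonal +/+ libraries, and 27.5% and 26.8% in axonal Hnrnpr-/- libraries. Summed markers of astrocytes and radial glia were at 1081 to 1530 CPM in somatodendritic and 3554 to 5928 CPM in axonal +/+ libraries, and at 1052 to 2239 and 3230 to 5194 CPM in the Hnrnpr-/- libraries, with 5 of 8 markers called higher in +/+ and 3 of 8 in Hnrnpr-/- cells. Fibroblast and meningeal markers were at 111 to 622 and 361 to 4332 CPM (3 of 8 higher in +/+ cells), those of oligodendroglia and Schwann cells at 204 to 854 and 201 to 1267 CPM (1 of 7 tested), and those of microglia at 9.76 to 33.8 and 13.2 to 94.9 CPM (1 of 7). In Hnrnpr-/- cells the corresponding levels were 182 to 1374 and 588 to 3221, 287 to 1038 and 252 to 1787, and 7.73 to 94.9 and 19.5 to 276 CPM, with the same numbers of markers higher. Motoneuron markers were at 1071 to 2012 CPM in somatodendritic and 97 to 436 CPM in axonal +/+ libraries (1196 to 2025 and 42.3 to 1090 CPM in Hnrnpr-/-), with 5 of 8 tested markers lower in each genotype, and the somatodendritic transcripts Map2, Camk2a and Ddn together were at 982 to 1185 and 67 to 512 CPM (2 of 3 lower). The microglia marker P2ry12 was at 0 counts in 4 libraries.

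Overlapping genes touch many members, because the kit does not keep the strand of an RNA while counting had used a strand setting. In the GENCODE annotation 31 of the 78 members have at least 10% of their exon bases under exons of a gene on the other strand, and 4 have as much under another gene on their own strand. Reads of such pairs cannot be told apart. Of the members named with values, Mrps25 (47.9%), Mrpl41 (42.2%), Mrpl10 (39.6%), Mrps18b (38.4%), Mrpl19 (35.6%), Mrpl35 (31.5%), Mrps18a (27.9%), Mrpl14 (23.7%), Mrps22 (22.7%), Mrps36 (21.9%), Mrps12 (19.3%), Mrpl52 (17%), Mrps21 (14.1%) and Mrpl48 (10.2%) are also among the 31, and Mrpl3 shares 26.4% of its exon bases with a gene on its own strand. Among the 44 members under both limits, 37 were higher in axonal +/+ and 37 in axonal Hnrnpr-/- libraries, with a median +/+ log2 fold change of 0.78. The 5 pseudogene rows with Mrpl or Mrps symbols held 0.845% as many counts as the members. Copies under other symbols were not counted, and 67 members had a fractional count in at least 1 library.

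Per exon length, the members spanned a broad range of levels. In +/+ somatodendritic libraries the median was 16.7 RPKM (CPM divided by the summed exon length in kilobases), from 2.19 for Mrpl14 to 78.3 for Mrpl42. Mrpl42, Mrpl28, Mrps6 and Mrpl12 were the highest there, and Mrpl14, Mrpl1 and Mrpl17 the lowest. Mrpl14 has 7525 bases of summed exons but a canonical transcript of 1704 bases, so its level per base is set low by the union length. In axonal +/+ libraries the median was 30.5 RPKM and the order at the top changed to Mrps6 with 178 RPKM. Mrps6, a small subunit protein with a bacterial counterpart, had 111, 141, 223 and 78.8 CPM there against 42.3 to 55.4 CPM in somatodendritic libraries, and 17.0% of its exon bases are shared with Slc5a3 and another gene on its own strand.

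Both mitochondrial rRNAs were higher in the axonal libraries of +/+ motoneurons, with a far wider spread than the protein genes. mt-Rnr1 (mitochondrial sequence, 70 to 1024, plus strand) had 19.2, 22.1, 35.2 and 42.3 CPM in somatodendritic and 128, 1197, 140 and 173 CPM in axonal +/+ libraries. mt-Rnr2 (1094 to 2675, plus strand) had 278, 311, 438 and 477 CPM in somatodendritic and 1121, 12831, 1070 and 1340 CPM in axonal +/+ libraries. Replicate 2 held far more of each rRNA than the other axonal +/+ libraries, while its summed level of the members, 4141 CPM, lay inside their range. It was also the highest of them in Hnrnpr (15608 counts) and in Map2, Camk2a and Ddn together (512 CPM). Its motoneuron markers, 420 CPM, lay inside their range. A link of these levels with the rRNAs was not tested. The log2 fold changes were 3.79 (SE 0.83, adjusted p = 0.00157) for mt-Rnr1 and 3.44 (SE 0.83, adjusted p = 0.00289) for mt-Rnr2. Without replicate 2 they were 2.30 (adjusted p = 0.00512) and 1.64 (adjusted p = 0.015).

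In Hnrnpr-/- motoneurons the rRNA levels of axonal libraries reached into the somatodendritic range. mt-Rnr1 was at 16.1, 40, 38.3 and 22.8 CPM in somatodendritic and 423, 104, 36.8 and 260 CPM in axonal libraries (log2 fold change 2.81, SE 0.80, adjusted p = 0.00836). mt-Rnr2 was at 220, 564, 494 and 322 CPM in somatodendritic and 2946, 778, 363 and 1693 CPM in axonal libraries (log2 fold change 1.85, SE 0.78, adjusted p = 0.0567). Axonal replicate 3 had the lowest rRNA level and the highest summed level of the members, 4884 CPM. Motoneuron markers were highest in axonal replicate 1 (1090 CPM) and lowest in replicate 3 (42.3 CPM), like the rRNAs. Replicates 2 and 4 had 391 and 140 CPM of these markers, the reverse of their rRNA order. Leaving out axonal Hnrnpr-/- replicate 1, the highest in both rRNAs, lowered the log2 fold changes to 2.18 and 1.23, whereas mt-Rnr2 passed the test with 1.85 to 2.22 when axonal +/+ replicate 2, 3 or 4 or axonal Hnrnpr-/- replicate 3 was left out. The ratio of rRNA to member CPM was 0.0819 to 0.877 in axonal and 0.121 to 0.239 in somatodendritic Hnrnpr-/- libraries (exact permutation p = 0.4), and 0.243 to 3.39 against 0.129 to 0.205 in +/+ libraries (log2 difference 1.79, exact permutation p = 0.0286, adjusted p = 0.0457). Within pairs of the same number the exact permutation p was 0.5 in Hnrnpr-/- cells and 0.125, the smallest for 4 pairs, in +/+ cells. Without axonal +/+ replicate 2 the axonal +/+ ratios were 0.243 to 0.452. The log2 difference was then 0.95 (exact permutation p = 0.0571, the smallest for 3 against 4).

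The balance between the rRNAs differed between compartments in both genotypes. Both rRNAs come from one transcript of the heavy strand and enter the ribosome in equal number. The ratio of mt-Rnr2 to mt-Rnr1 counts was 11.3 to 14.5 in somatodendritic and 7.66 to 10.7 in axonal +/+ libraries, and 12.9 to 14.1 against 6.51 to 9.87 in Hnrnpr-/- libraries. Neither genotype had an overlap between its compartments (exact permutation p = 0.0286 and adjusted p = 0.0457 in each). Within pairs of the same number the exact permutation p was 0.125 in each genotype, again the smallest possible. The log2 difference of the ratio was -0.59 in +/+ and -0.85 in Hnrnpr-/- cells, and without axonal +/+ replicate 2 it was -0.70 in +/+ cells (exact permutation p = 0.0571, the smallest for 3 against 4). Per base of gene length the ratio was 6.81 to 8.72 in somatodendritic +/+ and 4.62 to 6.47 in axonal +/+ libraries. Libraries had been primed on poly(A), which mitochondrial rRNAs carry only in short or partial form, so these values describe the captured fraction of each rRNA.

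Loss of hnRNP R was followed by no detectable change of the members in axons. Of 78 members, 0 differed between Hnrnpr-/- and +/+ axonal libraries at an adjusted p under 0.05 by edgeR, DESeq2 or limma, and 0 at an unadjusted p under 0.05 by these tools. Of the 18957 genes tested, 0.00528% passed the adjusted threshold, and 0.195% were higher and 0.528% lower at the unadjusted one. Log2 fold changes ran from -0.62 (Mrps18c) to 0.21 (Mrpl19) with a median of 0.04, and their standard errors had a median of 0.22. The summed level of the members was 4090 ± 679 CPM in +/+ and 4172 ± 500 CPM in Hnrnpr-/- axonal libraries (SD, n = 4 each, exact permutation p = 0.914). Differences of the size of these standard errors could not be seen at this spread.

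The smallest unadjusted p in axons belonged to Mrps18c, Mrps21, Mrps27 and Mrps18b. Mrps18c was at 27.7, 93.4, 47.8 and 28.4 CPM in +/+ and 32.2, 25.9, 36.5 and 35.1 CPM in Hnrnpr-/- libraries (log2 fold change -0.62, SE 0.40, unadjusted p = 0.16 by edgeR). Of the 4 Hnrnpr-/- values, 3 lay inside the +/+ range, which replicate 2 widened, and without axonal +/+ replicate 2 the log2 fold change was -0.09. Mrps21, Mrps27 and Mrps18b had log2 fold changes of -0.23, 0.19 and 0.20.

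In the somatodendritic compartment 0 members passed the adjusted threshold by edgeR, DESeq2 or limma, against 0.00557% of the 17961 genes tested. Mrpl42, a large subunit protein specific to mitochondria, was the only member at an unadjusted p under 0.05, where 1.68% of all genes were higher and 0.941% lower. Its levels were 54.5, 41.6, 50.2 and 69.4 CPM in +/+ and 39.0, 47.7, 42.4 and 33.5 CPM in Hnrnpr-/- libraries. The ranges overlapped (log2 fold change -0.40, SE 0.16, unadjusted p = 0.0302 and adjusted p = 0.999 by edgeR). Mrpl42 was no longer past the unadjusted threshold with the replicate block (edgeR, -0.38, unadjusted p = 0.0657) or without somatodendritic +/+ replicate 1 or 4 or Hnrnpr-/- replicate 1 or 4 (-0.39 to -0.26). Without Hnrnpr-/- replicate 2, 5 members were lower at that threshold, as were 191 of all 18254 genes tested. Mrpl14, Mrps18c and Mrps6 came next with log2 fold changes of -0.33, -0.47 and -0.20. Over the 78 members 55 fold changes were below 0, against 48.2% of all genes, the median was -0.05 against 0.01 and the standard errors had a median of 0.14. The summed level was 2331 ± 158 CPM in +/+ and 2228 ± 239 CPM in Hnrnpr-/- libraries (SD, n = 4 each, exact permutation p = 0.4).

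**Figure D4:**
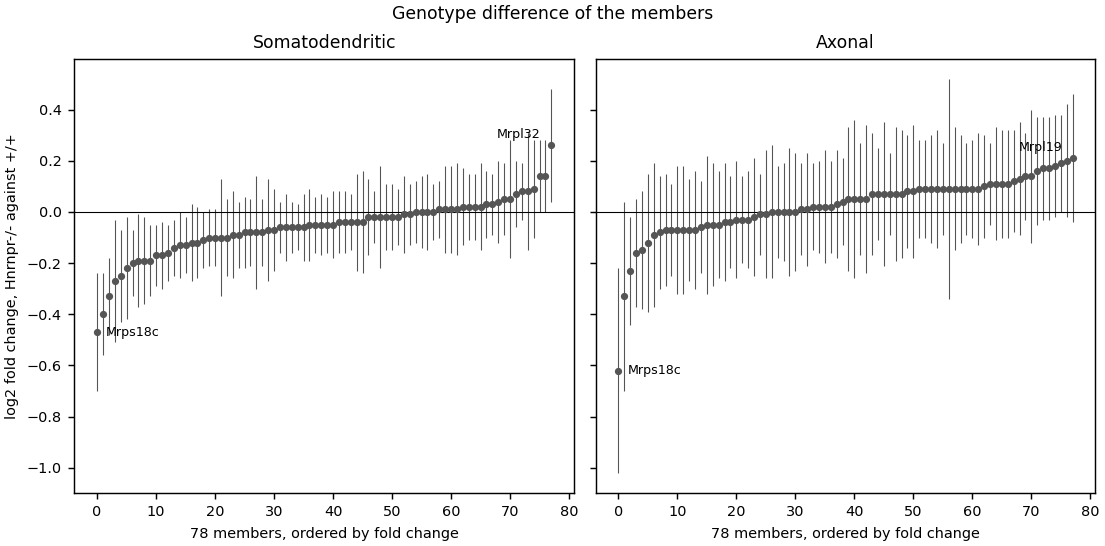
Log2 fold change with its standard error for Hnrnpr-/- against +/+ libraries, for the 78 members in order of their value, in the somatodendritic (left) and axonal compartment (right), with 4 libraries per genotype. Values run from -0.47 to 0.26 and from -0.62 to 0.21, and no member passed the adjusted test in either compartment.

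The difference between compartments in the genotype effect was tested directly. It passed for 0 of 78 members and for 0% of all 19964 genes after adjustment, and for 0 members at an unadjusted p under 0.05, where 0.406% of genes were above and 0.922% below 0. The median over the members was 0.11 and that over all genes 0.01, with 58 members and 51.1% of all genes above 0. Mrpl42 (0.42, SE 0.24), Mrpl14 (0.43, SE 0.27), Mrpl58 (0.27, SE 0.21) and Mrps18b (0.31, SE 0.25) had the smallest unadjusted p.

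Neither rRNA differed between genotypes beyond the spread of the libraries. In axons the log2 fold change of Hnrnpr-/- against +/+ was -1.01 (SE 0.93) for mt-Rnr1 and -1.53 (SE 0.97) for mt-Rnr2 (adjusted p = 1 for both), and without +/+ replicate 2 it turned to 0.49 and 0.30. In the somatodendritic compartment it was -0.01 (SE 0.31) and 0.10 (SE 0.27).

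Genes for other parts of the mitochondrial translation machinery were called in both directions, where 30.1% of all genes tested were higher and 27.4% lower in axonal +/+ libraries. Of 5 further ribosomal proteins with other symbols 3 were higher in axonal +/+ libraries: Chchd1 (log2 fold change 1.15), Aurkaip1 (1.05) and Gadd45gip1 (0.64). Dap3, a GTP-binding protein of the small subunit, had 107 to 122 CPM in somatodendritic and 77.4 to 107 CPM in axonal +/+ libraries (-0.30, adjusted p = 0.0589, and called lower at -0.39 without axonal +/+ replicate 1 and at -0.31 without axonal Hnrnpr-/- replicate 1). Ptcd3, which lines the mRNA entry, had 71.1 to 97.5 and 78 to 110 CPM (0.06, adjusted p = 0.721). In Hnrnpr-/- cells both were at -0.01, a value whose sign changed with the scaling.

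Among 26 genes for ribosome assembly and rRNA modification 5 were higher and 1 was lower in axonal +/+ libraries, against 30.1% and 27.4% of all genes, with a median log2 fold change of 0.08. Mpv17l2, an assembly factor, rose from 10.2 to 12 CPM up to 27.7 to 43.1 CPM (1.65, adjusted p = 2.14e-05), and Malsu1, which keeps the subunits from joining early, rose by 0.85. Dhx30, a helicase of mitochondrial RNA granules, fell from 207 to 274 CPM down to 106 to 174 CPM (-0.92, adjusted p = 0.000937). In Hnrnpr-/- cells 9 of the 26 were higher and 1 was lower, against 27.5% and 26.8% of all genes.

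Of 13 translation factors measured, 2 were higher and 2 lower in axonal +/+ libraries, against the 30.1% and 27.4% of all genes. The elongation factors Tsfm (0.86) and Tufm (0.43) were higher. Taco1, which activates translation of a cytochrome oxidase subunit (-1.19), and Mtfmt, which formylates the initiator tRNA (-0.46), were lower, although Mtfmt lost the call in 8 of the 16 fits that left out 1 library (-0.44 to -0.32). Of 6 genes for mitochondrial transcription and RNA stability, Slirp (1.34) and the elongation factor Tefm (0.63) were higher and Lrpprc (-1.28) was lower. Slirp and Lrpprc form a complex that stabilises mitochondrial mRNAs, yet their transcripts differed in opposite directions: Lrpprc had 120 to 160 CPM in somatodendritic and 35.2 to 72.9 CPM in axonal +/+ libraries, whereas Slirp had 6.3 to 11.8 and 16.9 to 28.8 CPM.

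For comparison, 90 of 93 cytosolic ribosomal protein genes tested were higher in axonal +/+ libraries with a median log2 fold change of 1.72, and so were 65 of 79 nuclear-encoded oxidative phosphorylation genes (1 lower, median 1.17). Their summed levels in the axonal +/+ libraries were 8304 to 15204 CPM and 11992 to 18256 CPM, against 3350 to 4981 CPM for the members.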

How the data were processed

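RNA of both compartments of cultured +/+ and Hnrnpr-/- motoneurons had been amplified with the SMART-Seq v4 kit, tagmented with Nextera XT and sequenced from one end. Axonal samples received the full reagent volume and more PCR cycles, somatodendritic samples a reduced volume and fewer cycles. According to the study's methods the authors trimmed reads with Cutadapt, aligned them to GRCm39 with STAR 2.7.2b and counted them per gene with featureCounts 1.6.4 under a reverse strand setting, in which reads that map to several places or overlap several genes enter as fractions. The values deposited by the authors are therefore estimated counts per gene that need not be whole, with no normalization. They were rounded to whole numbers here. On the mitochondrial sequence the counts used here covered 2 rRNA and 22 tRNA rows, and mitochondrial mRNAs were not analysed.

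Differences were tested in edgeR 4.0.16 (R 4.3.3) with its quasi-likelihood F-test, TMM factors and the filterByExpr filter. Compartment contrasts and the difference between compartments in the genotype effect came from 1 fit to all 16 libraries (19964 genes tested), genotype contrasts from the 8 libraries of each compartment (18957 axonal and 17961 somatodendritic genes). P-values were adjusted by Benjamini-Hochberg over all genes tested, at a threshold of 0.05, and the standard error was taken as the absolute log2 fold change over the square root of F. Ratios and summed levels were compared by two-sided exact permutation tests in SciPy 1.17.1. The study describes the 4 libraries of a group as biological replicates, and the labels name no culture or animal for them. Deviations of same-numbered libraries from their group means correlated at 0.18 to 0.56 between Hnrnpr-/- compartments and at 0.09 to 0.28 between +/+ compartments. In each genotype all 4 matched their own number best. On the evidence of the data, same-numbered libraries were therefore also tested as pairs between compartments, and not between genotypes. Total counts per library (22024923 to 34864151) set the counting error of a member, and intervals beyond the replicate spread were not computed. The edgeR tests of both genotype contrasts and of the +/+ compartment contrast were first tried on simulated data, and the other tests were not. No columns of per-sample values were left unused and no pair of libraries was identical.

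The members and gene lists were chosen with earlier results of these data known. The text names both rRNA rows, the 6 members with the largest and the 6 with the smallest log2 fold change among those called in axonal +/+ libraries at 5 CPM or more on average, the 4 members with the smallest unadjusted p in each genotype comparison and in the difference between compartments, the 4 highest and 3 lowest members per exon length in somatodendritic +/+ libraries, the ribosomal proteins under other symbols, members with a known role of their own, and of each other list the 2 highest and 2 lowest called genes. For ratios and summed levels compared between compartments, exact permutation within pairs and the omission of each library were added after the data were seen. Members outside this rule were named after their values were seen. Motifs were chosen as letters often given for NRF1, ETS factors, YY1, the GC box and the TATA box.

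As alternatives, scaling by RLE, scaling by plain library totals, library sizes without mitochondrial genes, no filter, a minimum of 10 counts in every library of a group, DESeq2 1.42.0, limma 3.58.1 (voom), the replicate number as a block, another set of libraries in the fit, and the omission of each library in turn were tried.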

Additional observations from a re-analysis of the deposited data

Results flagged for a closer look

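In 19 of 228 groups of 4 libraries examined (8.33%) the highest or lowest library stood apart by Dixon's criterion, with a gap to its nearest neighbour above the 95% critical value as a share of the range. Chance gives about 1 in 20.

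Axonal +/+ replicate 2 was far above the others in both mitochondrial rRNAs, with 1197 CPM of mt-Rnr1 and 12831 CPM of mt-Rnr2, and in the ratio of rRNA to member CPM, which was 3.39. Axonal +/+ replicate 3 was highest in Mrpl17 (113 CPM) and Mrps12 (60.9 CPM) and lowest in the ratio of large to small subunit CPM (2.14). Axonal +/+ replicate 1 was highest in Mrpl48 (81.1 CPM).

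Axonal Hnrnpr-/- replicate 3 was highest in Mrps30 (66.6 CPM), Mrps6 (268 CPM) and Mrpl45 (99.6 CPM), and axonal Hnrnpr-/- replicate 1 in Mrpl41 (66.8 CPM).

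Among somatodendritic +/+ libraries, Mrpl10 was lowest in replicate 2 (45.2 CPM), Ptcd3 lowest in replicate 1 (71.1 CPM), and replicate 4 was lowest in Tufm (99.5 CPM) and highest in Tefm (14 CPM) and Mrpl41 (43.1 CPM). Among somatodendritic Hnrnpr-/- libraries, replicate 2 was highest in Tufm (118 CPM) and Mrpl19 (31.2 CPM) and replicate 1 in Lrpprc (168 CPM).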

How the results depend on the processing

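Of 3532 alternative values for 155 results, 3298 were counted as unchanged. They kept their direction and their side of the threshold, or stayed within 1.5 times for counts. Medians of the members were counted as unchanged, whatever their sign, when they moved by less than their SD between libraries. The count of members higher in axonal libraries was 64 to 72 in +/+ and 64 to 72 in Hnrnpr-/- cells under the other settings, and 62 to 69 and 64 to 72 when 1 library was left out. Of all genes tested, 17.4% to 33.8% in +/+ and 15.7% to 31% in Hnrnpr-/- cells were higher under the other settings. When 1 library was left out it was 26.9% to 31.3% and 24.2% to 28.9%. The count of lower members was 0 to 1 in both genotypes when 1 library was left out. Of the 20296 to 20503 genes tested in these fits, 4616 to 5804 were lower in +/+ and 4270 to 5925 in Hnrnpr-/- cells. Library totals without factors moved the median of all genes from 0.07 to 0.22 in +/+ and from 0.00 to 0.12 in Hnrnpr-/- cells.

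The axonal difference of mt-Rnr2 in Hnrnpr-/- cells passed the threshold with library totals (1.96), a minimum of 10 counts (1.92), DESeq2 (1.86), limma (1.54) and the fit to only the groups compared (1.92), and ranged over 1.23 to 2.22 when 1 library was left out. The count of members lower in Hnrnpr-/- somatodendritic libraries at an unadjusted p under 0.05 was 2 without a filter, 2 by DESeq2, 2 by limma, 0 with the replicate block, and 0 to 5 when 1 library was left out. In the same order 394 of 31730, 208 of 31730, 172 of 17961, 183 of 17961 and 109 to 1223 of 18147 to 18349 genes were lower. The count of members above 0 in the difference between compartments at that threshold was 0 to 1. When 1 library was left out, 68 to 270 of 20296 to 20503 genes were above 0 there.

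Values near 0 changed sign. Mrpl48 in +/+ cells was at 0.01 with library totals. In Hnrnpr-/- cells Dap3 was at 0.00 with RLE, 0.12 with library totals, 0.02 without a filter, 0.05 with 10 counts, 0.05 with only the groups compared and -0.08 to 0.08 when 1 library was left out. Ptcd3 was at 0.00 with RLE, 0.11 with library totals, 0.02 without a filter, 0.05 with 10 counts, 0.00 by DESeq2, 0.05 with only the groups compared and -0.04 to 0.04. When 1 library was left out Ptcd3 ranged over -0.03 to 0.18 in +/+ cells, and Mrpl1 over -0.01 to 0.13, Mrpl48 over -0.07 to 0.13 and Mrps27 over -0.01 to 0.11 in Hnrnpr-/- cells. The genotype effect of mt-Rnr1 in the somatodendritic compartment was 0.01 with library totals and -0.20 to 0.20 when 1 library was left out, that of mt-Rnr2 -0.12 to 0.30, those in axons -1.61 to 0.49 and -2.11 to 0.30, and the differences between compartments -1.60 to 0.51 and -2.20 to 0.21. The genotype difference of the summed axonal level was -0.06 to 0.14. The median genotype effect over the members was -0.06 to 0.17 in axons and -0.11 to 0.02 in the somatodendritic compartment when 1 library was left out. The cause of these changes was not tested, apart from that of mt-Rnr1 and mt-Rnr2 in axons, which turned when axonal +/+ replicate 2 was left out.

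Libraries with the same replicate number correlated in their deviations at 0.09 to 0.28 between +/+ compartments and 0.18 to 0.56 between Hnrnpr-/- compartments. In each genotype all 4 matched their own number best. Between genotypes the correlations were -0.02 to 0.44 and 0.03 to 0.76, and 1 and 2 of 4 matched their own number best. The numbers were therefore taken as pairs between compartments and not between genotypes. With the replicate block 67 members were higher in +/+ and 66 in Hnrnpr-/- axonal libraries, against 29.7% and 28.2% of all genes. The +/+ differences of the rRNAs were then 3.33 and 2.81. For ratios and summed levels compared between compartments, alternatives chosen after the data were seen could not reach a p under 0.05 by their construction. The smallest exact permutation p is 0.125 for 4 pairs and 0.0571 for 3 against 4 libraries. Under the replicate block the axonal differences are by arithmetic those of the unpaired comparison, 0.80 and 0.90 for summed member CPM, -0.59 and -0.85 for mt-Rnr2 to mt-Rnr1 and 1.79 for rRNA to members in +/+ cells. When 1 library was left out they were 0.70 to 0.89, 0.83 to 0.97, -0.70 to -0.54, -0.97 to -0.77 and 0.95 to 2.22, the lowest of the last without axonal +/+ replicate 2. The Hnrnpr-/- ratio of large to small subunit was -0.04 to 0.01.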
